A study of Mus musculus with 11 samples.

Results

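Mouse embryonic stem cells (ESCs) that lack Bmpr1a were compared with wild-type ESCs after 3 days in N2B27. This serum-free medium lets ESCs exit pluripotency. The comparison takes the 3 one-colour Affymetrix arrays titled Bmpr1a-/- N2B27 and the 3 titled Control N2B27, which are 6 of the 11 arrays in the series, and it covers all 19935 genes that have transcript clusters with 1 symbol. The control is the wild-type line E14, grown for 3 days in N2B27. The mutant cells, labelled Bmpr1a-/-, had the same 3 days in N2B27, and the labels name 3 mutant lines (C1-6, Fr124 and Fr88) without saying which array holds which line. The other 5 arrays, 3 of control and 2 of mutant cells kept in ESC medium, enter the same model and are quoted only beside the N2B27 values. The labels do not tell whether the replicate arrays were cultured separately. The p-values thus cover only how far these arrays spread, and that spread may be technical. Because the mutant lines and E14 are different lines, the effect of the Bmpr1a genotype and other differences between the lines cannot be told apart. The mutant ESC-medium arrays are numbered 2 and 3 only, so the mutant arrays of the 2 media may hold different lines. A change between media in mutant cells cannot be told apart from such a change of lines.

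Bone morphogenetic proteins (BMPs) are secreted ligands that bind a type I receptor such as Bmpr1a together with a type II receptor such as Bmpr2. The activated receptor phosphorylates Smad1 and Smad5, which enter the nucleus and raise target genes, among them the Id genes. In ESC cultures BMP signalling supports self-renewal alongside LIF, and when both are withdrawn in serum-free medium many cells take a neural route through an epiblast-like state.

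The deposited values are log2 expression with every gene centred on its own baseline, so how strongly a gene is expressed is lost and only differences between arrays have a meaning. Values per array are therefore given relative to the mean of the 3 control N2B27 arrays, on the log2 scale, in the order of replicates 1, 2 and 3. The words rose and fell compare mutant with control cells in the same medium and do not mean a change over time. A gene was called where its limma p, adjusted over all 19935 genes, was under 0.05, and SE is limma's moderated standard error of the difference. For the same reason the markers of a cell type cannot be shown to be present or absent, only to differ. Of 6 pluripotency markers 3 were called higher in mutant cells. The mean of the 6 was 0.51 to 0.62 in the mutant arrays against -0.10 to 0.11 in the control arrays. It rests mostly on Zfp42 (chromosome 8) and Esrrb, which differed by 1.78 and 1.30. Pou5f1, also called, differed by 0.48, while Sox2 (0.15) and Nanog (-0.25) were not called. Of 5 neuron markers 2 were called higher, with means of 0.57 to 0.60 against -0.13 to 0.12. These means rest mostly on Tubb3 (chromosome 8), which read 1.82 to 2.17 in the mutant arrays. In ESC medium the neuron mean was 0.53 and 0.46 in the mutant arrays and 0.14 to 0.21 in the controls. For mesoderm and for trophoblast 0 of 5 markers were called by limma, with 1 of 5 at an unadjusted p under 0.05 in each, and the mesoderm mean was 0.55 in mutant replicate 2 and 0.17 in both other mutant arrays. Of 6 neural progenitor markers and of 5 markers of surface ectoderm and neural crest, 1 each was called higher. Of 6 endoderm markers 1 was called lower (3 of 6 at an unadjusted p under 0.05), and so was 1 of 6 fibroblast or feeder markers (2 of 6).

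In N2B27 the mutant cells had 1144 called genes (5.74%), of which 817 (4.1%) were higher and 327 (1.64%) lower than in control cells. In ESC medium, measured on other arrays, 1224 genes were called (6.14%), 615 higher (3.09%) and 609 lower (3.05%). These shares over all genes are the ones to set beside the counts of each gene list below, and some lists lie near them. The median difference over all genes in N2B27 was -0.001. The 3 mutant and 3 control values did not overlap for 4027 genes (20.2%), being higher in 11.7% and lower in 8.53%. Among called genes, 99 were higher and 25 lower by more than 1 on the log2 scale. The counts depended on single arrays: without control replicate 1, 2 or 3 they were 507 and 205, 448 and 141, or 359 and 95. With the replicate number as a block they rose to 1247 and 592. Mutant replicate 2 stood apart from the other arrays, with a root mean square deviation from its group mean of 0.185 against 0.0774 to 0.155 elsewhere, and without it 833 genes were higher and 371 lower.

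**Figure D1:**
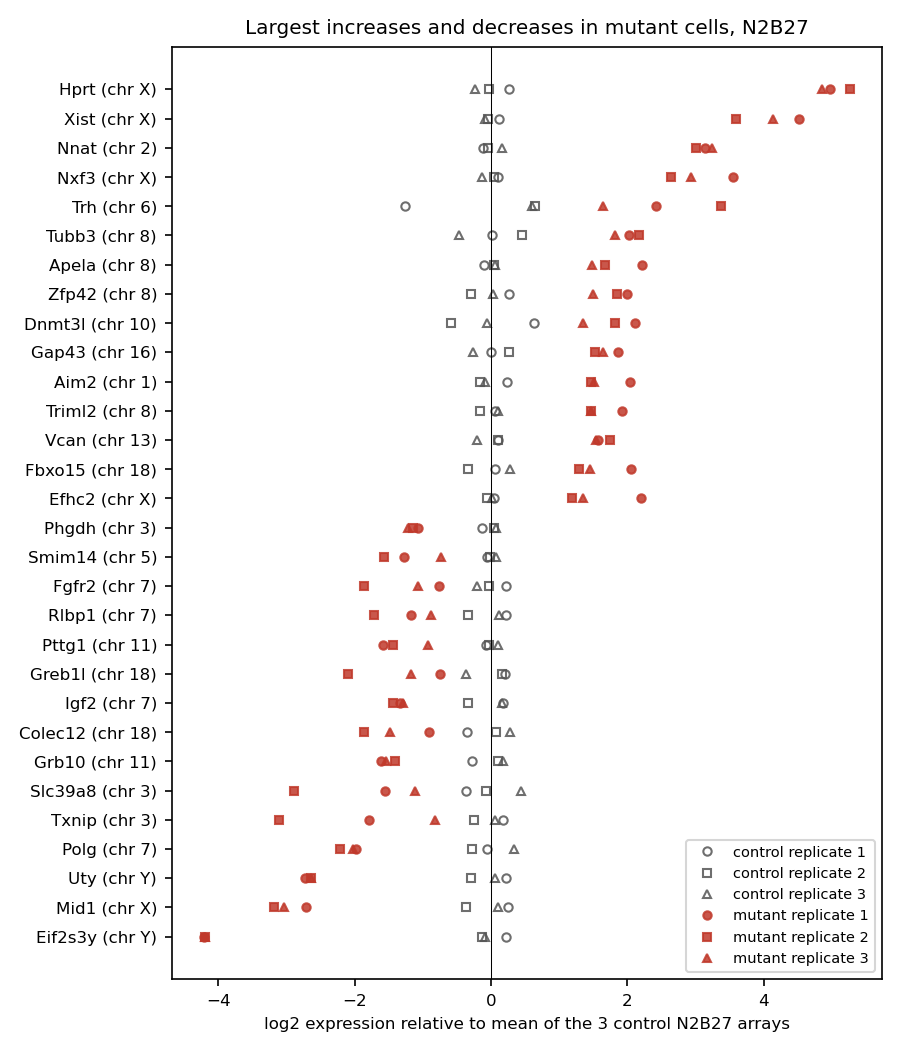
Values of 6 N2B27 arrays (points, open for control and filled for mutant, shape by replicate) for the 15 largest increases and 15 largest decreases, on a log2 axis relative to the control mean. Mutant and control points do not overlap for any gene shown, which the rule for choosing them required, and Txnip and Slc39a8 spread widely among the mutant arrays.

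The largest differences belonged to genes of the sex chromosomes. Hprt, which salvages purines and lies on the X, read 4.98, 5.26 and 4.86 in the mutant arrays and 0.26, -0.03 and -0.23 in the controls, a difference of 5.03 (SE 0.15, adjusted p = 1.26e-07), and it was 5.59 higher in ESC medium as well. Eif2s3y, a Y-linked translation initiation factor subunit, fell by 4.20 (SE 0.10, adjusted p = 1.81e-08), and Uty, a Y-linked histone demethylase, fell by 2.67. Eif2s3x, the X-linked partner of Eif2s3y, was 0.34 higher, a call lost with the 6 N2B27 arrays alone (adjusted p = 0.0603). Mid1, an X-linked ubiquitin ligase, fell by 2.98, and Nxf3, a relative of the mRNA export receptor, rose by 3.04. Each of these genes also differed between the lines in ESC medium.

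Xist, the RNA that coats the inactive X, differed much more in N2B27 than in ESC medium. The mutant N2B27 arrays read 4.53, 3.59 and 4.13 and the controls 0.12, -0.04 and -0.08, so that all mutant arrays lay far above all controls. The difference was 4.08 (SE 0.19, adjusted p = 3.29e-06) in N2B27 and 0.96 in ESC medium, and the change between media was called (3.13, SE 0.28, adjusted p = 0.000981). Of 739 genes on the X, 72 (9.74%) were called higher in N2B27 and 163 in ESC medium, with median differences of 0.03 and 0.09. Efhc2, a gene of the X, went the other way from Xist, with a difference of 1.58 in N2B27 and 3.97 in ESC medium (change between media adjusted p = 0.00916).

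Chromosome 8 was raised as a whole in the mutant arrays. Of its 955 genes 242 (25.3%) were called higher and 2 lower, against 4.1% and 1.64% of all genes. The median of chromosome 8 stood 0.17, 0.16 and 0.20 above that of the other autosomes (8 and 11 left out) in mutant replicates 1, 2 and 3, and at -0.002, 0.007 and 0.001 in the controls. In the mutant ESC-medium arrays chromosome 8 stood 0.08 and 0.09 above, and 150 of its genes were called higher in that medium. Chromosome 11 stood 0.05 above in mutant replicates 2 and 3 but 0.007 above in replicate 1, and in the mutant ESC-medium arrays it stood 0.01 and 0.009 above. On that chromosome 86 of 1563 genes (5.5%) were called higher. Without chromosomes 8, X and Y the counts over all genes were 389 higher and 221 lower. Below, the chromosome is given for genes on 8 or 11, and what part these shifts have in their differences was not tested.

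**Figure D2:**
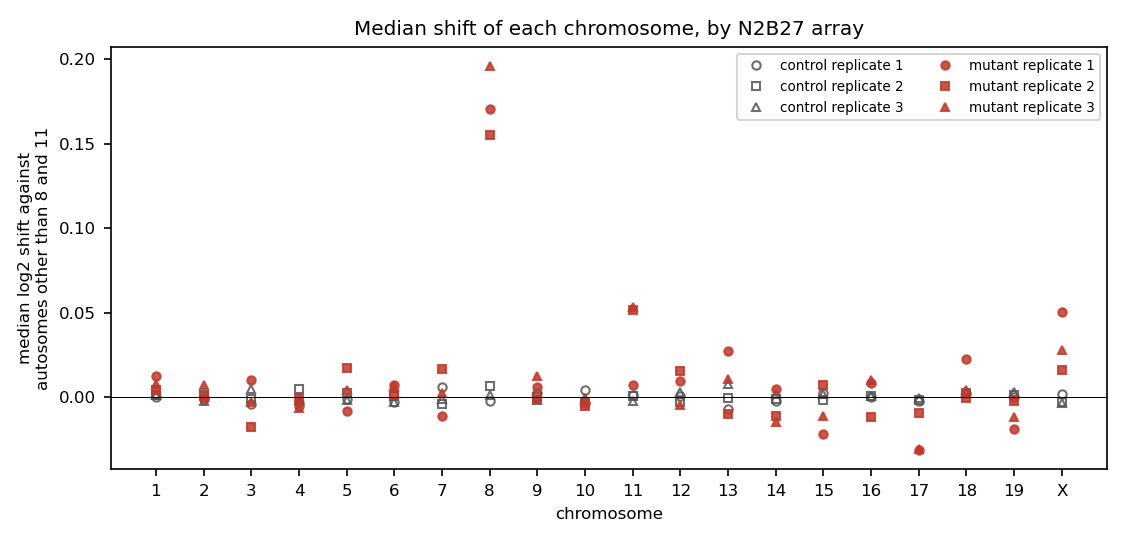
Median log2 shift of each chromosome (x axis) against the autosomes other than 8 and 11, 1 point for each N2B27 array, open for control and filled for mutant. Chromosome 8 is raised in all 3 mutant arrays, at 0.16 to 0.20, and chromosome 11 in mutant replicates 2 and 3 but not in replicate 1.

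A cluster of imprinted noncoding RNAs on chromosome 12, between Dlk1 and Dio3, was higher in mutant cells in N2B27. The region, chosen after its values were seen, expresses the long noncoding RNAs Meg3 and Rian and a long row of miRNAs from the maternal chromosome, and the protein-coding genes Dlk1, Rtl1 and Dio3 from the paternal one. Of 48 genes measured there, 27 were called higher and 0 lower, 38 had mutant values all above the control values (11.7% of all genes did), and the median difference was 0.71. Among miRNA genes, 20 of 40 in the region were called higher, while of 256 outside it 0 were called higher by limma (20 at an unadjusted p under 0.05) and 3 lower. Those outside it gave 4 higher and 7 lower with the replicate block, 21 and 13 with array weights, up to 3 higher without single arrays, and from 1 (without any single control replicate) to 8 lower (without mutant replicate 2). Without control replicate 3, 13 of the 40 were called. In ESC medium the median over the region was 0.02, and 0 of 48 genes were called by limma, with 0 higher and 1 lower at an unadjusted p under 0.05. The change between media was called higher for 16 of the 48 genes, against 1.57% of all genes.

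The sequences of 6 of these miRNAs are shown because these had the largest differences that passed the test among the miRNA genes of the region. All are on the plus strand of chromosome 12 in GRCm38.p6, from RefSeq, 5′ to 3′, with the seed (bases 2 to 8, which pair with target mRNAs) in capitals. The array reports 1 value for a miRNA gene and does not tell its arms apart, nor the precursor from the mature form.
miR-377-5p: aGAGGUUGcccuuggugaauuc
miR-377-3p: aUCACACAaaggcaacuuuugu
miR-382-5p: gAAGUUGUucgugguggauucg
miR-382-3p: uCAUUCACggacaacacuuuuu
miR-679-5p: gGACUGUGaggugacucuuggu
miR-679-3p: aGCAAGGUccuccucacaguag
miR-380-5p: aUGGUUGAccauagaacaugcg
miR-380-3p: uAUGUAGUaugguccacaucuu
miR-300-5p: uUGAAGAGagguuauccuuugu
miR-300-3p: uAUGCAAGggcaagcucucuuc
miR-127-5p: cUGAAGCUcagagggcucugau
miR-127-3p: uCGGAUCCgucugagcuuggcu
The 20 called miRNA genes have 37 mature miRNAs in the RefSeq table, with 37 different seeds. The miR-127 arms, at chr12:109592854-109592875 and chr12:109592888-109592909, lie antisense to Rtl1, and the other 5 genes lie further along, between miR-380-5p at chr12:109711806-109711827 and miR-377-3p at chr12:109740553-109740574.

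Mir377 read 2.73, 2.01 and 1.63 in the mutant arrays against 0.03, 0.20 and -0.22 in the controls, a difference of 2.12 (SE 0.24, adjusted p = 0.00141). Mir382 differed by 1.98 (SE 0.20), Mir679 by 1.71, Mir380 by 1.59, Mir300 by 1.45, Mir487b by 1.23 and Mir134 by 1.17. Mir127 was the steadiest, at 1.47, 1.33 and 1.34 against -0.02, 0.05 and -0.03 (difference 1.38, SE 0.09, adjusted p = 5.42e-05). All mutant arrays lay above all control arrays for these 8 genes, and replicate 1 was the highest mutant array for all except Mir134. In ESC medium their differences ran from -0.06 to 0.19, and the change between media was called for each of the 8.

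The long noncoding RNAs rose with the miRNAs. Rian read 1.93, 1.23 and 1.57 against 0.27, -0.06 and -0.21 (difference 1.58, SE 0.18, adjusted p = 0.00173), with a change between media of 1.57 that was called (adjusted p = 0.0202). Meg3 read 1.55, 1.06 and 1.17 against 0.39, -0.03 and -0.36, a difference of 1.26 (SE 0.19, adjusted p = 0.0057), with a change between media at adjusted p = 0.0539. Of the coding genes, Rtl1, a retrotransposon-derived gene with an antisense transcript that carries miRNAs including miR-127, rose by 0.59 (SE 0.08, adjusted p = 0.0032), and Dlk1, a membrane ligand of the Notch type, differed by -0.12 (adjusted p = 0.676). Dio3, which inactivates thyroid hormone, was 0.59 higher, but the call was lost under 10 alternatives, among them without any single control replicate or without mutant replicate 1 or 2 (adjusted p from 0.05 to 0.168). Without single arrays, the count of called genes in the region ran from 19 (without control replicate 3) to 30 (without mutant replicate 2).

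**Figure D3:**
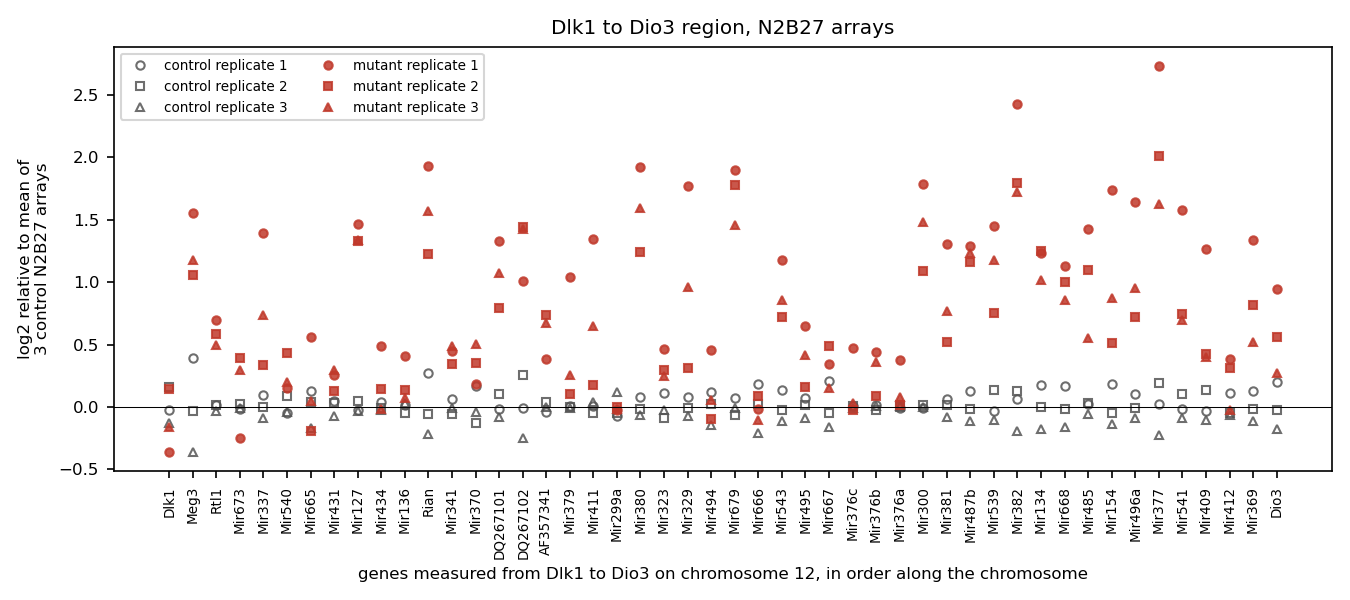
Log2 values of the 6 N2B27 arrays relative to the control mean for the 48 genes measured from Dlk1 to Dio3, in order along chromosome 12 (open points control, filled points mutant). Filled points lie above open points for 38 genes, while Dlk1 at the left end shows no such separation.

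Imprinted genes elsewhere changed in both directions. Of 20 on a list that also holds Meg3, Rian and Dlk1, 7 were called higher, Meg3 and Rian among them, and 5 lower, with a median of 0.43. In ESC medium 4 were called higher and 4 lower. Nnat, a paternally expressed membrane protein of developing neural tissue, read 3.14, 3.01 and 3.24 against -0.12, -0.04 and 0.16, a difference of 3.13 (SE 0.13, adjusted p = 2.05e-06), and 0.80 in ESC medium, a change between media that was called (2.33, adjusted p = 0.000681). Peg10, a retrotransposon-derived gene, rose by 1.22 (SE 0.12) and was at -0.32 in ESC medium (change between media adjusted p = 0.00363), and Ndn, which restrains growth in neurons, rose by 1.10. Plagl1, a zinc finger regulator of imprinted genes, and Impact, a regulator of translation, rose by 1.28 and 1.199 and were also called higher in ESC medium, by 1.02 and 0.86.

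The imprinted genes that fell include growth regulators from the Igf2 and Cdkn1c domains of chromosome 7. Grb10, an adaptor that restrains insulin and growth factor receptors (chromosome 11), read -1.61, -1.41 and -1.53 against -0.28, 0.11 and 0.17 (difference -1.52, SE 0.18, adjusted p = 0.00173). Igf2, a fetal growth factor, differed by -1.36 (SE 0.20, adjusted p = 0.00464), Cdkn1c, a cyclin-dependent kinase inhibitor, by -1.10 (SE 0.07, adjusted p = 5.42e-05), and Phlda2, which limits placental growth, by -0.97. These 4 genes were also called lower in ESC medium, by 1.15, 1.55, 0.91 and 1.12 in size. Nnat, Rian, Plagl1, Meg3, Peg10, Impact, Ndn, Grb10, Igf2, Cdkn1c and Phlda2 were called under all 15 alternatives tried except that Grb10 could not be tested where chromosome 11 was left out.

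Within the BMP pathway, called genes were found among receptors and ligands. Bmpr1a read -0.53, -0.83 and -0.74 in mutant and -0.07, -0.01 and 0.08 in control arrays (difference -0.70, SE 0.09, adjusted p = 0.00211), and it differed by -0.27 in ESC medium (adjusted p = 0.145). The deleted part of the gene is not described in the labels, and the value averages probes along the transcript, so its size does not measure loss of the receptor. Of 15 BMP and Activin receptors and co-receptors, 4 were called lower and 1 higher. Acvr1, another type I BMP receptor, fell by 0.33 (SE 0.05, adjusted p = 0.00766), and Tgfbr3, a co-receptor, fell by 0.90 (SE 0.13, adjusted p = 0.00471).

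The co-receptor Eng rose, reading 1.14, 1.60 and 0.79 against 0.15, -0.08 and -0.07 (difference 1.18, SE 0.18, adjusted p = 0.00544). Rgma, a BMP co-receptor of neural tissue, fell by 0.38, with a change between media that was called (-0.49, adjusted p = 0.0218). The Rgma call was lost with the 6 N2B27 arrays alone (adjusted p = 0.0552). Bmpr2 differed by 0.00 (SE 0.14), Bmpr1b by 0.03 (SE 0.10) and Acvr2b by -0.34 (adjusted p = 0.0607). Acvr2b was called lower without mutant replicate 3 (adjusted p = 0.0364) and with array weights (adjusted p = 0.0418).

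Of 12 ligands, 2 were called lower and 1 higher. Bmp7, a ligand that read -2.003, -1.97 and -1.80 in the control ESC-medium arrays, read -0.73, -0.996 and -0.83 in mutant N2B27 arrays, below all controls (difference -0.85, SE 0.12, adjusted p = 0.00462). Bmp4 read -0.67, -1.26 and -0.97 against -0.18, 0.02 and 0.16 (difference -0.97, SE 0.20, adjusted p = 0.024). The Bmp4 call was lost when any of control replicates 2 and 3 and mutant replicates 2 and 3 was left out (adjusted p from 0.0529 to 0.0942). Gdf3, a ligand of the same family that pluripotent cells express, rose by 0.77 (SE 0.17, adjusted p = 0.0266), and that call was lost without any single control replicate or without mutant replicate 1 or 2 (adjusted p from 0.0562 to 0.0933).

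SMAD proteins and BMP targets gave 0 calls in N2B27 by limma. Of 12 SMAD proteins and ligases 1 was higher and 1 lower at an unadjusted p under 0.05, and of 19 targets 0 did, with medians of -0.05 and -0.04. Id1 read -0.42, -0.03 and -0.36 against -0.14, 0.17 and -0.03, groups that overlapped, and differed by -0.27 (SE 0.12, adjusted p = 0.265). Id3 differed by -0.23 (SE 0.18), Id4 by -0.06 (SE 0.07), Smad1 by 0.32 (chromosome 8, adjusted p = 0.121), Smad5 by 0.14, Smad6 by -0.19 and Smad7 by 0.09. With array weights, Id1 was called lower (adjusted p = 0.0245) and Smad1 higher (adjusted p = 0.0163).

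Id2, an inhibitor of helix-loop-helix factors, read 0.05, 0.49 and -0.63 in mutant and -0.19, 0.18 and 0.01 in control N2B27 arrays (difference -0.03, SE 0.25). In ESC medium it was 1.81 lower in mutant cells, and the change between media was called (1.79, SE 0.38, adjusted p = 0.0447). Id3 was called lower in ESC medium too (-0.78, adjusted p = 0.0495), and Id1 was at -0.53 there (adjusted p = 0.0502), with changes between media that were not called (adjusted p = 0.417 and 0.628). In the control cells Id1, Id2 and Id3 were all higher in ESC medium than in N2B27, at 1.32 to 1.67, 1.84 to 2.45 and 1.35 to 1.57 above the control N2B27 mean. Promoter windows of RefSeq (GRCm38.p6, 300 bases) were searched on both strands for GGCGCC and CAGAC, letters that SMAD proteins bind. The Id2 window held GGCGCC 1 time and CAGAC 0 times, and the Id3 window held them 0 and 2 times, while 11.9% and 49.6% of all 32851 windows held at least 1 match. Of the antagonists, Fst, which traps Activin and BMPs, read 0.42, 2.87 and 0.26, so its difference of 1.19 (adjusted p = 0.292) lay mostly in mutant replicate 2.

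Of 20 genes of naive pluripotency, 7 were called higher and 0 lower, with a median of 0.56, and all 20 differences were positive. In ESC medium 7 were called higher as well, with a median of 0.55, and 0 changes between media were called by limma (5 higher and 3 lower at an unadjusted p under 0.05). Zfp42, a zinc finger gene that marks naive cells (chromosome 8), read 2.00, 1.84 and 1.49 in mutant arrays against 0.27, -0.30 and 0.03 in controls, a difference of 1.78 (SE 0.19, adjusted p = 0.00129), next to 0.88 in ESC medium (adjusted p = 0.0416). The control arrays in ESC medium read 4.06 to 4.66 for it, so the mutant N2B27 arrays lay between the 2 control groups.

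Fbxo15, an F-box gene of naive cells, read 2.05, 1.29 and 1.45 against 0.06, -0.34 and 0.28 (difference 1.60, SE 0.21, adjusted p = 0.00282). Esrrb, an orphan nuclear receptor that sustains self-renewal, read 1.58, 0.94 and 1.39 against 0.27, -0.43 and 0.16 (difference 1.30, SE 0.20, adjusted p = 0.0057). Nr0b1, a nuclear receptor without DNA-binding domain on the X, rose by 1.37 (SE 0.20, adjusted p = 0.00486). For these 3 the control ESC-medium arrays stood at 2.95 to 3.30, 3.63 to 3.96 and 5.15 to 5.84, above every mutant N2B27 array. Dppa5a, an RNA-binding protein of pluripotent cells, rose by 1.35, a call lost with the 6 N2B27 arrays alone (adjusted p = 0.0859).

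Among genes of pluripotency in general, 2 of 11 were called higher (4 with the replicate block, 1 without control replicate 1 or 3). Dppa2, a chromatin factor, read 1.78, 1.89 and 1.07 against 0.19, -0.08 and -0.11 (difference 1.58, SE 0.24, adjusted p = 0.00524). Pou5f1, the central factor of pluripotency, rose by 0.48 (SE 0.10, adjusted p = 0.0266), and its call was lost without control replicate 1 or 3 or with the 6 N2B27 arrays alone (adjusted p from 0.0634 to 0.108). Nanog differed by -0.25 (SE 0.30) and Sox2 by 0.15 (SE 0.18), with overlapping groups for both, and Klf4 by 0.22 (adjusted p = 0.484). Triml2, a tripartite motif gene on chromosome 8, rose by 1.62 (SE 0.19), and Stat3, the transducer of LIF signalling on chromosome 11, rose by 0.60, a call lost with the 6 N2B27 arrays alone (adjusted p = 0.0539). Trh, the precursor of thyrotropin-releasing hormone, read 2.42, 3.38 and 1.65 in mutant arrays, but its controls spread from -1.26 to 0.65 (difference 2.48, SE 0.52, adjusted p = 0.025). The Trh call was lost without mutant replicate 1 or 2 or with the 6 N2B27 arrays alone (adjusted p from 0.0521 to 0.1).

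Of 20 markers of the formative epiblast, the state between naive cells and lineage choice, 3 were called higher and 0 lower, with a median of -0.03, and 1 was called lower without mutant replicate 2 or with the replicate block. Without chromosomes 8, X and Y 1 was called higher. In ESC medium 4 were called lower. Apela, which encodes a secreted peptide hormone (chromosome 8), read 2.22, 1.68 and 1.48 against -0.11, 0.05 and 0.06 (difference 1.79, SE 0.22, adjusted p = 0.00227), and its change between media was called (2.13, adjusted p = 0.0141). Dnmt3l, a cofactor of DNA methyltransferases, rose by 1.76 (SE 0.29, adjusted p = 0.00795), though its control arrays ranged from -0.58 to 0.64. Pou3f1, a factor of epiblast and neural cells, rose by 0.62 (adjusted p = 0.048), and that call was lost under 9 alternatives, among them the absence of any 1 control replicate or of mutant replicate 1 or 2 (adjusted p from 0.0513 to 0.145). Fgf5 differed by -0.28 (SE 0.28), Dnmt3b by -0.02 (SE 0.12) and Otx2, the factor that drives exit from the naive state, by -0.56 (SE 0.17, adjusted p = 0.0829). Otx2 read -0.50, -0.72 and -0.47 in mutant arrays, all below the controls, and was called with array weights (adjusted p = 0.0438). In control cells in ESC medium Dnmt3l stood at 2.92 to 3.51, above every mutant N2B27 array, and Apela at 0.50 to 1.27. Pou3f1 stood there at -0.09 to 0.29, Fgf5 at -2.62 to -1.95 and Otx2 at -2.36 to -2.11.

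**Figure D4:**
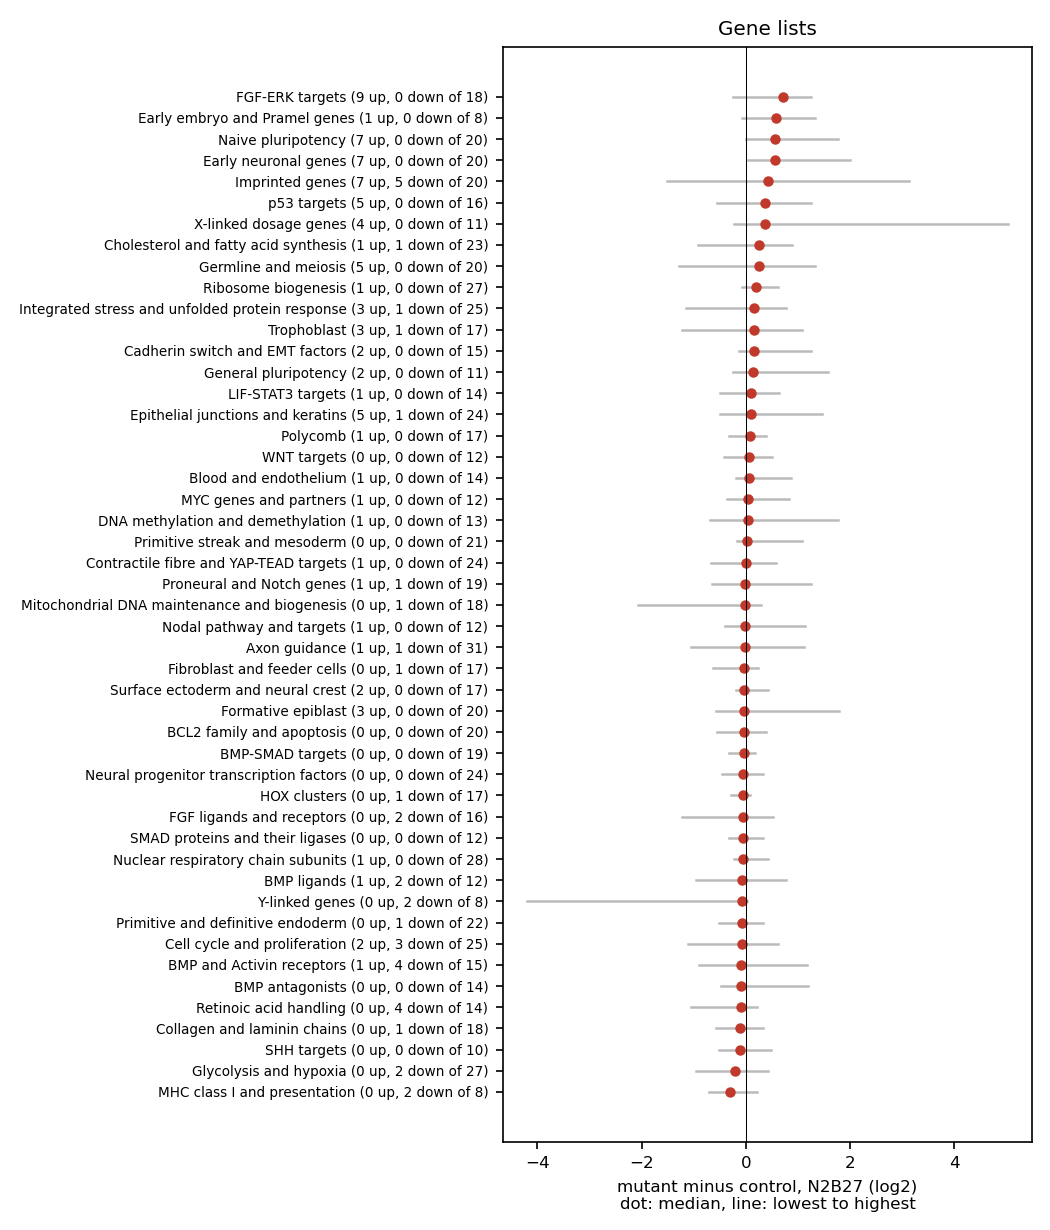
Median (dot) and lowest to highest (line) log2 difference, mutant minus control in N2B27, for each gene list other than those of the Dlk1 to Dio3 region and of miRNA genes, with the number of members called higher and lower. The highest medians shown are those of FGF-ERK targets, early embryo genes, naive pluripotency and early neuronal genes, and several lists with medians near 0 hold single genes with large differences.

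Of 20 genes on a list of early neuronal genes, 7 were called higher and 0 lower, with a median of 0.56, and 2 were called higher in ESC medium. The list also holds Nes and Vim, which are not particular to neurons. Tubb3, the neuronal beta-tubulin (chromosome 8), read 2.03, 2.17 and 1.82 against 0.02, 0.45 and -0.47 (difference 2.01, SE 0.22, adjusted p = 0.00129), and was 1.18 higher in ESC medium as well. Gap43, a growth cone protein, read 1.86, 1.53 and 1.64 against 0.00, 0.26 and -0.26 (difference 1.68, SE 0.14, adjusted p = 0.0004), and its difference of 0.11 in ESC medium gave a called change between media (adjusted p = 0.00844). In control cells Tubb3 and Gap43 were higher in ESC medium than in N2B27, at 0.74 to 1.29 and 1.00 to 1.40 above the control N2B27 mean. The mutant ESC-medium arrays read 2.36 and 2.05 for Tubb3 and 1.32 and 1.35 for Gap43. Vim, an intermediate filament protein of many immature cells, rose by 1.25 (SE 0.15).

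Nes, the intermediate filament of neural progenitors, rose by 1.27 (SE 0.29, adjusted p = 0.0312), with a change between media of 2.11 (adjusted p = 0.0367). Its control ESC-medium arrays read -0.72, 0.48 and 0.31. The Nes call was lost without any single control replicate or without mutant replicate 1 or 3 (adjusted p from 0.066 to 0.108). Of 24 neural progenitor transcription factors 0 were called by limma, with 1 higher and 3 lower at an unadjusted p under 0.05 2 called lower without mutant replicate 2 and 1 with the replicate block. Sox1, the earliest neural factor (chromosome 8), differed by -0.09 (SE 0.08), and Pax6 by -0.10 (SE 0.27), with overlapping groups for both. On a list of proneural and Notch genes, 1 of 19 was called higher and 1 lower, with a median of -0.01. The lower call was lost without any single control replicate or without mutant replicate 1. The higher one, Neurod1, a proneural factor, read 1.98, 1.03 and 0.76 against 0.36, -0.02 and -0.34 (difference 1.25, SE 0.27, adjusted p = 0.0266). Its call was not held without control replicate 2 or 3 or with the 6 N2B27 arrays alone (adjusted p from 0.0796 to 0.112). Vcan, a matrix proteoglycan, rose by 1.62 (SE 0.17), with a change between media of 2.18 that was called.

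Of 21 genes of primitive streak and mesoderm 0 were called by limma, with 1 at an unadjusted p under 0.05. Eomes, a T-box factor of the streak and trophoblast, read 1.23, 1.67 and 0.32 against -0.17, 0.10 and 0.08, a difference of 1.07 (adjusted p = 0.0549). It was called with the replicate block (adjusted p = 0.0289) and without mutant replicate 3 (adjusted p = 0.00391). Gata6 and Sox17, factors of endoderm, differed by -0.21 (adjusted p = 0.238) and -0.18 (adjusted p = 0.357). Sox17 was called lower without mutant replicate 2 (adjusted p = 0.0439) and with array weights (adjusted p = 0.0304). A longer trophoblast list of 17 genes had 3 called higher and 1 lower, with a median of 0.16, and 0 higher and 3 lower in ESC medium. Without single arrays the N2B27 counts ran from 2 to 5 higher and from 0 to 1 lower. Tfap2c of that list, a factor of trophoblast, germ cells and naive cells, rose by 0.98 (SE 0.12, adjusted p = 0.00238), reading 2.11 to 2.25 in control ESC-medium arrays.

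Of 18 targets of FGF-ERK signalling, 9 were called higher and 0 lower, with a median of 0.72, and 8 had a called change between media. Spry2, a feedback inhibitor, read 1.32, 1.53 and 0.74 against -0.05, 0.03 and 0.02 (difference 1.1995, SE 0.17, adjusted p = 0.00411), and was at -0.41 in ESC medium (change between media adjusted p = 0.0143). Etv4, an ETS factor on chromosome 11, rose by 1.26 (SE 0.20, adjusted p = 0.00642). In ESC medium 3 of the 18 were called lower.

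Etv5, a second ETS factor, rose by 0.76, a call not held without control replicate 1 or 2 or with the 6 N2B27 arrays alone (adjusted p from 0.0547 to 0.0864). Dusp6, a phosphatase of ERK, rose by 0.78 (adjusted p = 0.0312), a call not held when any of control replicates 2 and 3 and mutant replicate 1 was left out or with the 6 arrays alone (adjusted p from 0.0626 to 0.118). The count of called targets was 4 without control replicate 2, 5 without control replicate 3 and 4 with the 6 N2B27 arrays alone. Of 16 FGF ligands and receptors 2 were called, both lower (0 without control replicate 1, 1 without control replicate 2 or mutant replicate 1). Fgfr2 read -0.77, -1.86 and -1.07 against 0.23, -0.02 and -0.20 (difference -1.23, SE 0.23, adjusted p = 0.0144), a call not held without control replicate 1 (adjusted p = 0.0508) and with the 6 arrays alone (0.0778). Fgfr3 fell by 0.40, a call not held when any of control replicates 1 and 2 and mutant replicate 1 was left out or with the 6 arrays alone (adjusted p from 0.0545 to 0.0989).

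Of 31 genes of axon guidance 1 was called higher and 1 lower, against 4.1% and 1.64% of all genes, with a median of -0.02. In ESC medium 8 were called lower, against 3.05% of all genes. Epha2, an ephrin receptor tyrosine kinase, rose by 1.12 (SE 0.16, adjusted p = 0.00424), next to -0.48 in ESC medium (change between media adjusted p = 0.0119). The lower count was 5 with the replicate block, and without single arrays it ran from 0 (without control replicate 2 or 3) to 3 (without mutant replicate 1).

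Of 14 genes that handle retinoic acid, a signal that promotes neural fate, 4 were called lower and 0 higher, with a median of -0.09. Dhrs3, a reductase that limits retinoic acid synthesis, read -1.14, -1.05 and -0.96 against -0.14, -0.29 and 0.43 (difference -1.05, SE 0.16, adjusted p = 0.0052). Rdh10, which makes the retinaldehyde precursor, fell by 0.82, Crabp2, an intracellular carrier, by 0.81, and Cyp26a1, which degrades retinoic acid, by 0.54. The Rdh10 call was lost without control replicate 2 or 3, without mutant replicate 1 or with the 6 N2B27 arrays alone (adjusted p from 0.0605 to 0.0883). That of Crabp2 was lost without any single control replicate, without mutant replicate 1 or 2 or with the 6 arrays alone (0.0532 to 0.0839), and that of Cyp26a1 without control replicate 1, without mutant replicate 3 or with the 6 arrays alone (0.0526 to 0.0931). The count of called members was 2 without any single control replicate or without mutant replicate 1.

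Of 24 epithelial junction and keratin genes, 5 were called higher and 1 lower in N2B27 and 0 and 8 in ESC medium, and 6 had a change between media called higher. Without control replicate 2 or 3 the count of those higher in N2B27 was 3, and the 1 lower call was lost when any of control replicates 1 and 3 and mutant replicates 1 and 2 was left out. Without chromosomes 8, X and Y, 3 were called higher and 0 lower. Krt8, a simple-epithelium keratin, read 0.65, 0.40 and 0.70 against -0.02, -0.14 and 0.16 (difference 0.58, SE 0.10, adjusted p = 0.0113), whereas in ESC medium it was 1.85 lower (change between media 2.43, SE 0.15, adjusted p = 7.99e-05). The N2B27 call of Krt8 was lost with the 6 arrays alone (adjusted p = 0.0581). Krt19, another keratin on chromosome 11, rose by 1.47, a call not held without control replicate 2 (adjusted p = 0.0532), and it was at -1.11 in ESC medium (change between media adjusted p = 0.0143). Of 24 contractile fibre and YAP-TEAD target genes, 1 was called higher in N2B27 (0 without any single control replicate or without mutant replicate 1 or 3, or without chromosomes 8, X and Y, and 2 lower with the replicate block) and 15 lower in ESC medium, with a change between media called higher for 9.

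Of the classical cadherins, Cdh1, E-cadherin (chromosome 8), rose by 0.50 (SE 0.12, adjusted p = 0.0346), a call not held when any of control replicates 2 and 3 and mutant replicates 1 and 3 was left out or with the 6 arrays alone (adjusted p from 0.0787 to 0.125). Cdh2, N-cadherin, read 1.16, 0.87 and 0.43 against -0.14, 0.44 and -0.30, groups that overlapped, and differed by 0.82 (adjusted p = 0.0576). It was called with the replicate block (adjusted p = 0.0177) and without control replicate 2 (0.0273) or mutant replicate 3 (0.0291).

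**Figure D5:**
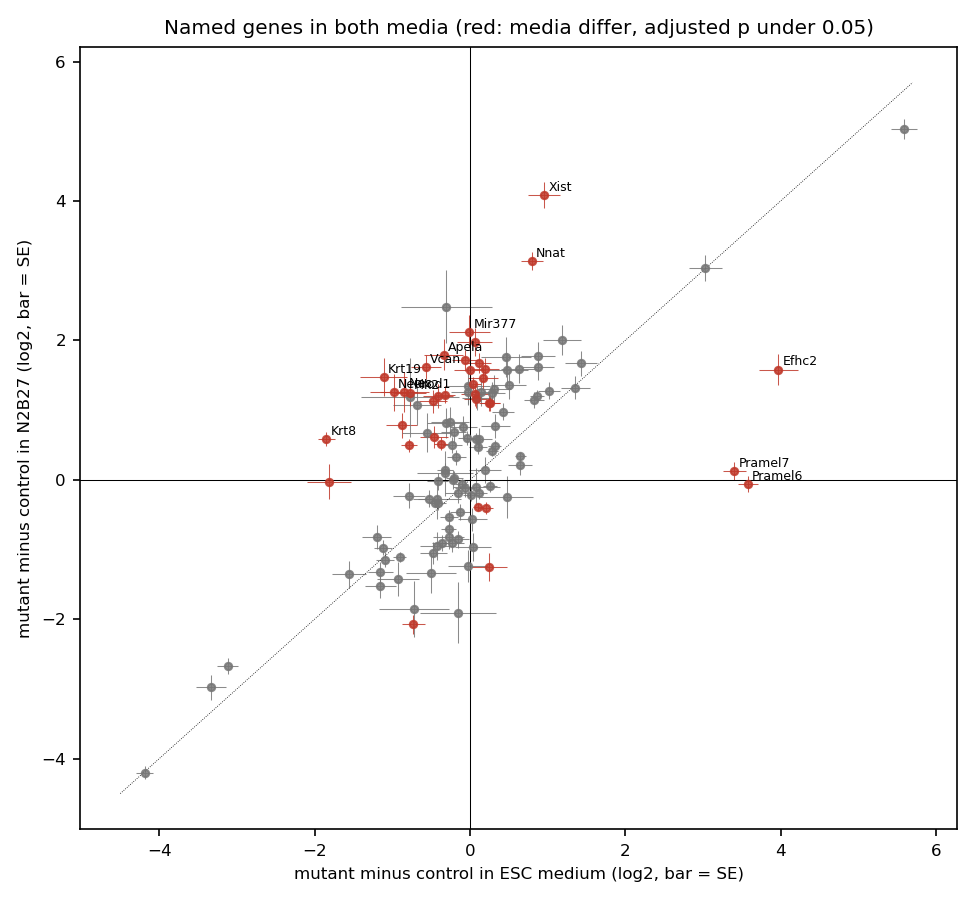
Difference between mutant and control, on the log2 scale with its SE, in ESC medium (x axis) and in N2B27 (y axis) for the genes named in the text. The dotted line marks equal differences, red points had a called change between media, and those whose change exceeded 2 in size are labelled.

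Of 16 targets of p53, the DNA damage and stress factor, 5 were called higher and 0 lower, with a median of 0.37. Plk2, a polo-like kinase, read 1.52, 1.45 and 0.77 against 0.22, -0.05 and -0.16 (difference 1.25, SE 0.19, adjusted p = 0.00566), and was at -0.78 in ESC medium (change between media 2.02, adjusted p = 0.00929). Perp, a p53 target that also builds desmosomes, rose by 0.50 (SE 0.09, adjusted p = 0.0126) and was 0.79 lower in mutant cells in ESC medium (change between media adjusted p = 0.00242). Mdm2, the ubiquitin ligase that restrains p53, rose by 0.68, a call not held when any of control replicates 2 and 3 and mutant replicates 1 and 2 was left out or with the 6 arrays alone (adjusted p from 0.059 to 0.114). The count of called targets was 2 without control replicate 2 or 3 and 3 with the 6 arrays alone. Of 20 genes of the BCL2 family and apoptosis 0 were called by limma, with 2 higher and 4 lower at an unadjusted p under 0.05, 1 called higher without mutant replicate 2, and 1 called lower without control replicate 1 or with the replicate block.

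Of 25 cell cycle regulators, 2 were called higher and 3 lower, among the latter Cdkn1c. With the replicate block 4 were higher and 8 lower, and without control replicate 2 or 3 the lower count was 1. Cdkn2a and its neighbour Cdkn2b, inhibitors of G1 kinases, rose by 0.49 (SE 0.08) and 0.52 (SE 0.09), at adjusted p = 0.0066 and 0.0108, with all mutant arrays above all controls. Pttg1, a gene outside that list that encodes securin (chromosome 11), read -1.58, -1.44 and -0.93 against -0.07, -0.03 and 0.10 (difference -1.32, SE 0.15, adjusted p = 0.00139), and was 1.15 lower in ESC medium. Myc differed by 0.68 (SE 0.28, adjusted p = 0.221) and Mycn by 0.83 (SE 0.22, adjusted p = 0.0559). Myc was called without mutant replicate 3 (adjusted p = 0.013), and Mycn without that array (0.0433), with the replicate block (0.00857), with array weights (0.0378) and with centring on autosomes outside chromosome 8 (0.0492). Of 27 genes of ribosome biogenesis 1 was called higher, near the 4.1% of all genes, with a median of 0.20. At an unadjusted p under 0.05, 11 were higher and 0 lower, and 23 of the 27 differences were positive. The called count was 7 with the replicate block, and without single arrays it ran from 0 (without control replicate 1 or 3) to 4 (without mutant replicate 1).

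Polg, the catalytic subunit of the mitochondrial DNA polymerase, read -1.97, -2.22 and -2.02 against -0.06, -0.27 and 0.33 (difference -2.07, SE 0.14, adjusted p = 5.42e-05). It was 1 of 18 genes of mitochondrial DNA maintenance to be called, a count that was 2 without mutant replicate 3 or with the replicate block, and it was 0.73 lower in ESC medium, with a called change between media (-1.35, adjusted p = 0.0127). In control cells Polg was lower in ESC medium than in N2B27, at -1.61 to -1.39. The mutant N2B27 arrays lay below all of these, next to the mutant ESC-medium arrays at -2.19 and -2.26. Rlbp1, a retinoid carrier that lies close to Polg on chromosome 7, fell by 1.25 (SE 0.20), with a called change between media (-1.50, adjusted p = 0.0372), and its N2B27 call was lost with the 6 arrays alone (adjusted p = 0.0528). Among the 6 measured genes on either side of Polg, Fanci, a DNA repair gene between Rlbp1 and Polg, was called lower as well (-0.46, adjusted p = 0.0484), a call lost under 12 alternatives, among them without any single control replicate or without mutant replicate 1 or 2 (adjusted p from 0.0517 to 0.152), and the others were not called. The 28 nuclear genes for respiratory chain subunits had a median of -0.06.

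Phgdh, the first enzyme of serine synthesis, fell by 1.14 (SE 0.11, adjusted p = 0.000561), reading -1.07, -1.15 and -1.22, and by 1.10 in ESC medium. Atf4, the stress factor known to raise Phgdh, was 0.42 higher (adjusted p = 0.00994), a call lost with the 6 arrays alone (adjusted p = 0.0651). For cholesterol and fatty acid synthesis, 1 of 23 genes was called higher and 1 lower, with a median of 0.26 and 17 positive differences. The higher count was 7 with the replicate block and 3 without mutant replicate 1, and the lower count was 2 without control replicate 1. Insig1, a brake on cholesterol synthesis and the gene called lower, fell by 0.91 (SE 0.12, adjusted p = 0.0027). Of 27 genes of glycolysis and hypoxia 2 were called lower, with a median of -0.20, and 0 were without control replicate 2 or 3, 1 without any other single array and 4 with the replicate block. Slc2a3, a glucose transporter, fell by 0.95 (SE 0.20), a call not held without any single control replicate or with the 6 arrays alone (adjusted p from 0.0549 to 0.0931).

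Txnip, a brake on glucose uptake, read -1.79, -3.11 and -0.82 against 0.18, -0.25 and 0.07, a difference of -1.91 (SE 0.44, adjusted p = 0.0344). The mutant arrays differed widely, and the call was lost without any single control replicate, without mutant replicate 1 or with the 6 arrays alone (adjusted p from 0.0675 to 0.125). Slc39a8, a zinc and manganese importer, showed a like spread, at -1.55, -2.89 and -1.12 against -0.37, -0.07 and 0.44 (difference -1.85, SE 0.40), and its call was lost without control replicate 2 or 3 or with the 6 arrays alone (adjusted p from 0.0742 to 0.106). Replicate 2 was the lowest mutant array for both. Greb1l, a gene needed for kidney development, fell by 1.34 (SE 0.29), a call not held without control replicate 1 or 2 or with the 6 arrays alone (adjusted p from 0.0787 to 0.104), and Colec12, a scavenger receptor, fell by 1.42 (SE 0.24, adjusted p = 0.00941).

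Of 20 germline genes 5 were called higher and 0 lower in N2B27 (3 higher without control replicate 3, 1 lower with the replicate block or without mutant replicate 1) and 9 higher in ESC medium. Of the 16 left without chromosomes 8, X and Y, 1 was called higher in N2B27. Rpl10l, a testis ribosomal protein, read 1.44, 1.56 and 0.97 against -0.06, -0.01 and 0.07 (difference 1.32, SE 0.17, adjusted p = 0.00251), next to 1.36 in ESC medium. Rhox9, an X-linked homeobox gene of germ cells, rose by 1.15 (SE 0.11) and Tex15, a meiosis gene on chromosome 8, by 1.10 (SE 0.12). Aim2, a sensor of cytosolic DNA, rose by 1.67 (SE 0.18) and by 1.43 in ESC medium. Of 8 early embryo and Pramel genes, 1 was called higher in N2B27 and 4 in ESC medium, with medians of 0.59 and 1.44, and 7 of the 8 differences in N2B27 were positive. The N2B27 count was 0 without control replicate 2 or 3 or mutant replicate 1, and 2 without mutant replicate 2 or with the replicate block. Pramel6 and Pramel7, which had the smallest differences of that list in N2B27, differed by -0.06 and 0.13 in N2B27 and by 3.58 and 3.40 in ESC medium, and the change between media was called for both (adjusted p = 1.25e-05 and 6.83e-05).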

How the data were processed

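Total RNA was hybridised to 11 Affymetrix arrays with a single dye, 6 of them compared here. The authors deposited log2 values, and the submitters' processing notes name RMA and Affymetrix Expression Console 1.2. Each transcript cluster had been centred on a baseline, not given in the sources used here. That the log base is 2 follows from RMA's usual output. Of 28815 clusters, 21780 had 1 symbol in the platform annotation, and the mean over a gene's clusters gave 19935 genes. Group means were fitted jointly with limma 3.58.1 (lmFit and eBayes, R 4.3.3, 7 residual degrees of freedom, two-sided tests), and p was adjusted by Benjamini-Hochberg over all genes. The change between media is the interaction contrast of this fit. The members, the 48 gene lists and the rule for named genes were chosen with earlier results of these data known. Named genes are the 15 largest called increases and decreases without overlap (predicted genes, receptors of smell, small RNAs and symbols on several loci left out), up to 4 called members of each list (the 2 largest where none was called), and 36 further genes whatever their values. Some of these are not named for room. The miRNA genes, Meg3, Rtl1, Dlk1, Dio3, Plagl1, Impact, Peg10, Ndn, Phlda2, Acvr2b, Dusp6, Etv5, Fanci, Pramel6 and Pramel7 were named after their values were seen. Same-numbered control and mutant N2B27 arrays deviated from their group means together (correlations across genes of 0.256, 0.430 and 0.158 for replicates 1, 2 and 3, all over 0.1), which meets the criterion for pairing by number from the values, not from the labels. The fit reported has no block, so its SE and p leave that pairing out, and the replicate block is printed where it changes a call or a count by over 1.5 times. The number of arrays limits the precision. Background correction could not be varied and dim probes could not be filtered on centred values. The fit was tested on simulated data. The simulated noise was independent between genes and arrays, so that test does not cover the pairing or the chromosome shifts seen here.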

Additional observations from a re-analysis of the deposited data

Results flagged for a closer look

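For 36 of the genes named above, the difference between mutant and control in N2B27 differed from that in ESC medium by the interaction test (limma, adjusted over all genes), and the sizes below are the N2B27 difference minus the ESC-medium difference on the log2 scale, over 3 and 3 N2B27 arrays and 3 and 2 ESC-medium arrays. Over all genes 422 (2.12%) passed this test. In the chromosome 12 region it was higher in N2B27, by 2.13 for Mir377, 1.92 for Mir382, 1.77 for Mir679, 1.57 for Rian, 1.39 for Mir380, 1.34 for Mir127, 1.29 for Mir300, 1.16 for Mir487b and 1.09 for Mir134 (adjusted p from 0.00193 to 0.0427). For other imprinted genes it was 2.33 for Nnat, 1.55 for Peg10 and 0.84 for Ndn (adjusted p from 0.000681 to 0.0352). For genes of neural cells and matrix it was 2.23 for Neurod1, 2.18 for Vcan, 2.11 for Nes and 1.56 for Gap43 (adjusted p from 0.00417 to 0.0367). For genes of the FGF-ERK pathway and Epha2 it was 1.66 for Dusp6, 1.61 for Spry2, 1.60 for Epha2 and -0.60 for Fgfr3 (adjusted p from 0.0119 to 0.0441). For keratins and genes of the p53 response it was 2.58 for Krt19, 2.43 for Krt8, 2.02 for Plk2 and 1.28 for Perp (adjusted p from 7.99e-05 to 0.0143). For epiblast, BMP and cell cycle genes it was 2.13 for Apela, 1.08 for Pou3f1, 1.79 for Id2, 0.88 for Cdkn2b and -0.49 for Rgma (adjusted p from 0.0131 to 0.048). For genes of the X, of germ cells and of early embryos it was 3.13 for Xist, 0.85 for Tex15, -2.39 for Efhc2, -3.28 for Pramel7 and -3.65 for Pramel6 (adjusted p from 1.25e-05 to 0.0382). For the neighbours on chromosome 7 it was -1.35 for Polg and -1.50 for Rlbp1 (adjusted p from 0.0127 to 0.0372). Many of these genes were chosen for their N2B27 difference, which enters the change between media. The mutant arrays of the 2 media may also hold different lines, which this test cannot separate from the medium.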

How the results depend on the processing

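Of the 92 called genes named, 62 were called under every alternative in which they could be tested, and 4 others lost the call only in fits that left out 1 array. The counts of genes called (817 higher and 327 lower) were 321 and 76 with the 6 N2B27 arrays alone, 1247 and 592 with the replicate block, 1821 and 1061 with array weights and 389 and 221 without chromosomes 8, X and Y. Without chromosomes 8, 11, X and Y, an alternative chosen after seeing the data, they were 323 and 204. Leaving out 1 array at a time gave 359 to 833 higher and 95 to 391 lower, the lowest without control replicate 3. Array median centring (806 and 324), centring on autosomes outside chromosome 8 (855 and 307), robust empirical Bayes (790 and 303), the cluster of largest variance (826 and 331) and each cluster tested on its own (824 and 328) stayed within 1.5 times. The block, beyond the calls given above, moved no call of a named gene. Genes that were not called and changed sign were Bmpr1b (-0.0016), Id4 (0.020), Smad7 (-0.24) and Sox2 (-0.14) with array weights, and, over the fits without 1 array, Bmpr2 (-0.093 to 0.177), Bmpr1b (-0.058 to 0.115), Id2 (-0.29 to 0.27), Id4 (-0.11 to 0.013), Smad7 (-0.31 to 0.37), Nanog (-0.49 to 0.12), Sox2 (-0.092 to 0.342), Fgf5 (-0.49 to 0.016), Dnmt3b (-0.105 to 0.034) and Pax6 (-0.35 to 0.050). The cause of these changes was not tested. Other background corrections and a filter on dim probes were not run, since the values are already corrected and centred, and signal over background is therefore unknown.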
